A study of Mus musculus with 32 samples.

Results

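The neural cells of the mouse forebrain at E9.5 were those cells dissected as forebrain from E9.5 embryos that the study's published cell grouping placed among its neuronal cells. There were 88 of them, 45 from embryo 1 and 43 from embryo 2, among 384 neural cells, 1815 cells with a group and 1916 cells in the whole series. The study picked single cells from dissected organs of mouse embryos by mouth pipette and counted their transcripts from the 3′ end with unique molecular identifiers (UMIs), which mark each captured molecule. The neural cells compared here came from the forebrain and hindbrain of 6 embryos, 2 at each of E9.5, E10.5 and E11.5.

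All embryos were of strain C57BL/6J, and the labels name no allele, agent or treatment. Embryo 1 of E9.5 was labelled male and embryo 2 female, and the 4 later embryos were labelled male. By the labels, E9.5 libraries were run on a HiSeq 2500 and later ones on a HiSeq 4000, whereas the study's methods name only the latter. If the labels hold, sequencer and stage cannot be told apart in a comparison of stages. The hindbrain samples of E9.5 came from the same 2 embryos and carried the tissue label metencephalon. At E9.5 each embryo had a forebrain sample of its own, while at E10.5 and E11.5 the cells of both embryos were in 1 forebrain sample per stage and were told apart by their names. The embryo, not the cell, was the replicate throughout.

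At this stage the wall of the forebrain is a neuroepithelium, a single layer of dividing progenitors that spans from the ventricle to the outer surface and gives rise to the neurons and glia of the cerebrum and eyes. Sox2 and Pax6 are transcription factors of these progenitors, Nes encodes their intermediate filament nestin, and Hes1 is a Notch effector that keeps them from becoming neurons. The neuroepithelium is patterned by signalling centres, among them an anterior ridge that secretes FGFs and a dorsal midline that secretes Wnts and BMPs, and it slows its division as neurons begin to form.

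The forebrain libraries of E9.5 were the deepest of the forebrain. A neural cell held a median of 514018.5 UMIs and 7082.5 genes, against 126174.5 UMIs per cell over the later forebrain. The median was 260712 UMIs in embryo 1 and 1115880 in embryo 2. Embryo 1 also gave 3 cells without a group, and embryo 2 gave 3 mesodermal cells, 1 hematopoietic cell and 1 cell without a group, none of which entered the comparisons. The median correlation of log values over genes was 0.822 between a pair of cells of embryo 1, 0.833 within embryo 2 and 0.817 across embryos. Cell numbers, which stand for the barcodes, were shared by 12 cells of both embryos, and by 19 and 36 cells of forebrain and hindbrain of embryos 1 and 2. The highest correlation of any pair of cells was 0.880 across embryos, 0.887 within embryo 1 and 0.883 within embryo 2. Pairs of cells that share a number were not examined apart. In the later forebrain, the cells of E10.5 embryo 2, labelled male, held the X-inactivation transcript Xist at 3.14, against 0.00 in embryo 1 of E9.5, so that 1 comparison embryo went against its label. Values are given as TPM, the authors' name for the UMIs of a gene scaled to a common total per cell, as in CPM, and a level is the mean over an embryo's neural cells of log2(TPM/10 + 1). Such a level does not separate the share of cells with a transcript from the amount per cell. A cell was said to express a gene at 10 TPM or more.

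The label fitted the markers in both embryos. Sox2 was expressed in 41 of 45 cells of embryo 1 (91.1%, Wilson 95% interval 79.3 to 96.5) and in 40 of 43 cells of embryo 2 (93.0%, 81.4 to 97.6). Pax6 was expressed in 38 and 40 cells, Nes in 37 and 39, and Hes1 in 38 and 38. The filament gene Vim was expressed in all 88 cells. Beside them stood 34 hematopoietic cells of the brain samples, with a median of 359448.5 UMIs. In these, Sox2 reached 10 TPM in 8.82%, Pax6 in 5.88%, Hes1 in 26.5%, Nes in 47.1% and Vim in 85.3%. The shares in the forebrain lay above those in the hematopoietic cells for Sox2, Pax6, Nes and Hes1. All such intervals cover counting error only. Since the grouping itself was made from the cells' expression, the marker shares describe the cells and test nothing.

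Transcripts of other cell types were low. The summed mean level of 6 macrophage markers was 0.0933 and 0.443 TPM, that of 7 neural crest markers 6.58 and 6.05 TPM, with Sox10, Foxd3 and Erbb3 at 0 in both embryos, and that of 8 endothelial markers 26.1 and 34.7 TPM. The 12 mesenchyme markers summed to 40.7 and 12.6 TPM, with 1 of them at a mean of 10 TPM or more in embryo 1. The 8 surface ectoderm markers summed to 15.0 and 3.57 TPM. Embryonic globins and other erythroid markers summed to 52.1 and 95.6 TPM, with the 4 adult globin genes listed at 0 in every library. Of 39 Hox genes, which mark the trunk and the caudal hindbrain, none was expressed in any of the 88 cells, while 32 were expressed in 24 cells of an E9.5 somite sample read the same way. The E9.5 hindbrain cells also expressed only 1 Hox gene in embryo 1 and none in embryo 2, and held Otx2, a factor of the forebrain and midbrain, at 4.80 and 4.63. The hindbrain comparison is therefore one with labelled metencephalon cells that lacked Hox transcripts and carried Otx2.

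Forebrain regional factors were expressed in most cells. Emx2 (chr19:59458372-59465357), a factor of the dorsal telencephalon, was expressed in 38 and 38 cells, Lhx2, a factor of cortex and eye, in 43 and 42, and Fezf1 (chr6:23245044-23248362), a forebrain zinc-finger repressor, in 37 and 36. Six3, an anterior factor, was expressed in 82.2% and 62.8% of cells, and Otx2 in 100% and 79.1%, so that embryo 1 had the higher share for both. Expression was rare or absent for Nkx2-1, Rax, Dlx2 and En1. Nkx2-1, of the ventral forebrain, was expressed in 1 cell of each embryo, Rax, of the optic field and hypothalamus, in 0 and 3 cells, Dlx2, of ventral interneuron progenitors, in 2 and 5 cells, and the isthmic factor En1 in none.

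Markers of young neurons did not all stand at one level at this stage. Dcx (chrX:143855842-143933311), a microtubule protein of migrating young neurons, was expressed in 0 of 88 cells, which allows a share of up to 3.41%, and the highest value in any cell was 1.74 TPM. In the later forebrain 70 of 96 cells expressed Dcx, and in the E9.5 hindbrain 19 of 75. The mean over embryos was 0% at E9.5 against 64.0% later, and no embryo overlapped. An exact permutation test of 2 embryos against 4 gave a two-sided p of 0.133, the smallest that its 15 regroupings allow, so that it cannot pass 0.05. The proneural factor Neurog2 was expressed in 0 and 2 cells, and the GABA-synthesising enzyme Gad2 in 2 and 0. Tubb3, a neuronal tubulin, still reached 10 TPM in 82.2% and 69.8% of cells, but it did so in 88.2% of the hematopoietic cells as well, so that its share at this cutoff was no higher than in cells that are not neurons. The Notch ligand Dll1 was expressed in 30 and 16 cells, and its relative Dll3, of cells committing to the neuronal lineage, in 2 and 1. Stmn2, a microtubule regulator of growing neurites, was expressed in 29 of 45 and 8 of 43 cells, and in 64.7% of the hematopoietic cells. Gadd45g, which is induced in cells leaving the cycle to differentiate, was expressed in 13 and 9 cells, and in 76.5% of the hematopoietic cells. At this cutoff neither gene had a higher share in either embryo than in the hematopoietic cells. Of the latter only 1 came from an E9.5 forebrain, so that their shares are not a background of these libraries.

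**Figure D1:**
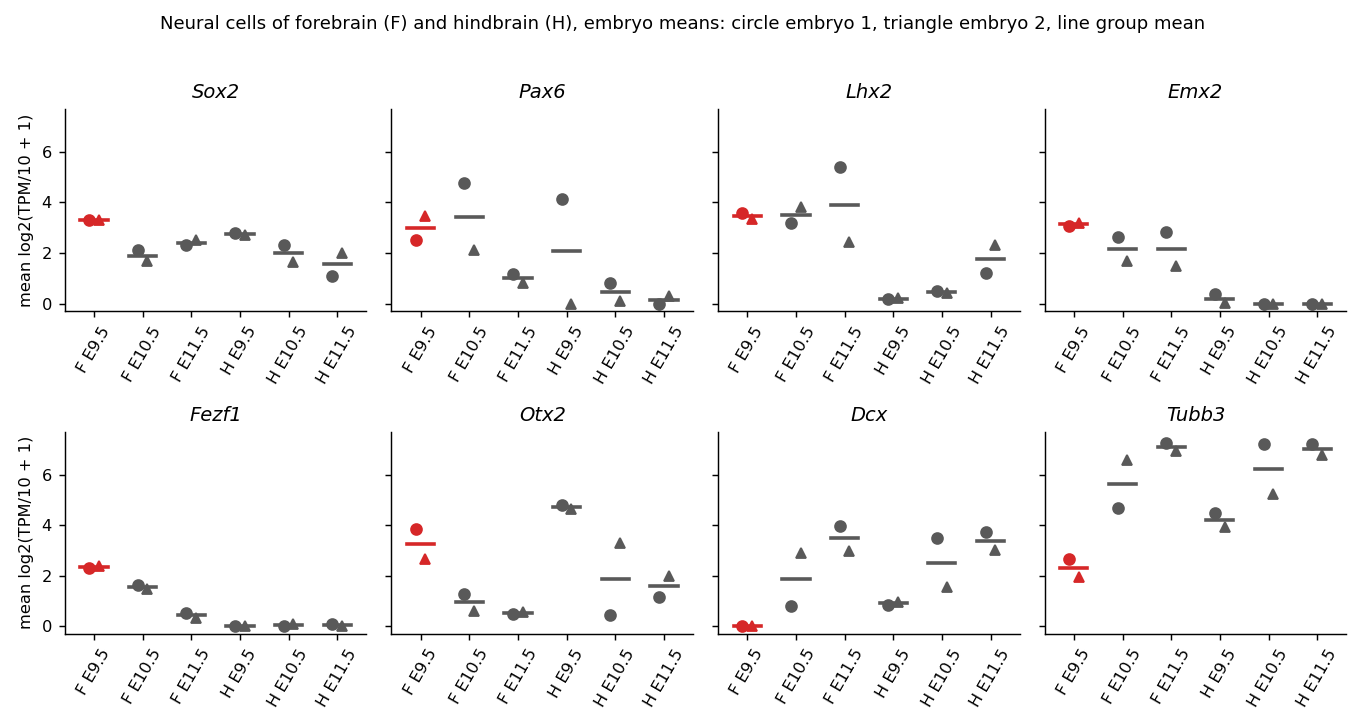
Mean log2(TPM/10 + 1) over the neural cells of each embryo (y axis) in forebrain (F) and hindbrain (H) at 3 stages (x axis), for 8 genes. Circles are embryo 1, triangles embryo 2 and lines group means, with forebrain E9.5 in red. Lhx2, Emx2 and Fezf1 were at 2.31 or more in both E9.5 forebrain embryos and at 0.38 or less in both E9.5 hindbrain embryos, and Dcx was at 0.00 and 0.01 in forebrain E9.5.

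The comparison with hindbrain cells of the same embryos asks which genes set the regions apart at E9.5. Of 14200 genes tested, 20 were higher (0.141%) and 38 lower (0.268%) in forebrain, 0.408% in all, at an adjusted p below 0.05 and a difference of at least 1 on the log2 scale (limma's moderated test on 12 embryo means, Benjamini-Hochberg adjustment). With the embryo as a replicate block, the pairing that the labels give, 12 genes were higher and 17 lower, and of the genes described here Dlk1, H2-K1, Irx5, Wls, Axin2, Gadd45g, Pou3f2, Onecut2, Tal2, Srrm4 and 2510009E07Rik missed the threshold, with limma adjusted p-values of 0.0524 to 0.108. Of 27 genes followed through the alternatives, 16 kept their call with the block, 4 without embryo 1's forebrain, 6 without embryo 2's forebrain, 7 without embryo 1's hindbrain and 12 without embryo 2's hindbrain. Without embryo 1's forebrain 10 genes were called in all, without embryo 2's forebrain 30, without embryo 1's hindbrain 21 and without the forebrain of E11.5 embryo 1 or 2, which enters only through the pooled spread, 38 and 37. Differences on this scale understate folds for low genes. Counts of called list genes below are to be read against 0.141% higher and 0.268% lower over all genes.

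The genes higher in forebrain included regional factors. Emx2 stood at 3.08 and 3.20 in forebrain and at 0.38 and 0.00 in hindbrain, a difference of 2.95 ± 0.41 (SE from the pooled spread, n = 2 and 2 embryos, limma adjusted p = 0.00663). Fezf1 stood at 2.31 and 2.39 and was at 0.00 in both hindbrain samples (2.35 ± 0.21, limma adjusted p = 0.000289). They were among the 3 members called of 32 tested forebrain and fore-midbrain factors, beside 0.141% called higher over all genes. The list median was 0.08 against -0.02 over all genes, and by edgeR 5 were higher and 2 lower. Lhx2 at 3.56 and 3.33 against 0.17 and 0.20 (3.26 ± 0.68, limma adjusted p = 0.0532) and Six3 at 2.63 and 1.74 against 0.04 and 0.00 (2.16 ± 0.53, limma adjusted p = 0.101) did not overlap between regions but missed the threshold. Groups failed to overlap for 44.5% of all genes, so that this alone marks nothing.

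The remaining genes of the higher set were of mixed function. The uncharacterised transcript 3110039M20Rik was at 2.67 and 3.07 in forebrain and at 0.01 and 0.00 in hindbrain (2.86 ± 0.36). The imprinted transmembrane gene Dlk1 was at 2.56 and 2.45 against 0.10 and 0.11 (2.40 ± 0.36), with a limma adjusted p of 0.0564 under the block, and Wfdc2, a secreted protease inhibitor, at 4.00 and 2.61 against 1.18 and 0.79 (2.32 ± 0.41). Pcdh19, a protocadherin, the cell-surface glypican Gpc4 and the RNA-editing family member Adarb2 differed by 2.05 ± 0.33, 1.93 ± 0.31 and 1.91 ± 0.33. Ccne1, the G1/S cyclin E1, was at 3.96 and 3.98 against 1.87 and 2.26 (1.91 ± 0.28), and was the 1 member called among 20 S phase genes. The class I antigen H2-K1 differed by 1.89 ± 0.36, and Ldhb, a lactate dehydrogenase subunit, stood at 5.70 and 5.57 against 3.36 and 4.18 (1.86 ± 0.27). Adjusted p-values of these genes (limma) lay between 0.00336 for 3110039M20Rik and 0.0349 for H2-K1.

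Genes lower in forebrain included Crabp1 and a pair of Iroquois factors. Crabp1 (chr9:54764748-54773110), which binds retinoic acid in the cytoplasm, was at 1.14 and 2.07 in forebrain and at 4.96 and 6.28 in hindbrain (-4.02 ± 0.55, limma adjusted p = 0.00587), the largest difference in this direction. It was expressed in 18 and 28 forebrain cells and in 75 of 75 hindbrain cells. Of 15 retinoic acid genes tested it was the 1 called, with 6 above 0, 7 below 0 and a list median of 0.00. The midbrain and eye factor Mab21l2 stood at 0.03 and 0.06 against 2.94 and 2.68 (-2.76 ± 0.30, limma adjusted p = 0.00143). The homeodomain factors Irx3 (-2.54 ± 0.39) and Irx5 (-2.09 ± 0.38) were at 0.08 or less in both forebrain embryos. They were the 2 members called lower among 24 tested midbrain and hindbrain factors, beside 0.268% over all genes. Of this list edgeR called 6 lower and the fit with the block 1, since Irx5 had a limma adjusted p of 0.0564 there. Pax3, a dorsal neural tube factor of that list, was at 0.25 and 0.03 against 3.52 and 2.51 (-2.88 ± 0.65, limma adjusted p = 0.0737).

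The Wnt carrier Wls and the Wnt targets Axin2 and Sp5 were among the lower genes. Wls, which carries Wnt proteins to the cell surface, stood at 0.76 and 1.25 in forebrain against 4.21 and 3.25 (-2.72 ± 0.50, limma adjusted p = 0.0283). Axin2, a direct Wnt target, stood at 0.42 and 0.18 against 1.98 and 1.31 (-1.34 ± 0.23, limma adjusted p = 0.0247), and Sp5, another target, at 0.01 and 0.23 against 1.87 and 1.31 (-1.47 ± 0.22, limma adjusted p = 0.00942). These were 3 called lower of 30 Wnt genes tested, beside 0.268% over all genes, with none called higher. Differences were above 0 for 14 of the 30 and below 0 for 16, with a list median of -0.09. By edgeR none was called. With the block Sp5 alone was called, with limma adjusted p-values of 0.0966 for Wls and 0.0524 for Axin2. The BMP target Id1 was at 0.80 and 1.01 against 2.80 or more in both hindbrain samples (-2.44 ± 0.35, limma adjusted p = 0.00663).

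Gadd45g and several neural transcription factors were also lower than in the hindbrain. Gadd45g was at 0.96 and 0.94 against 3.78 and 3.58 (-2.73 ± 0.50, limma adjusted p = 0.0293). The neural factors Pou3f2 (-2.65 ± 0.47), Onecut2 (-2.47 ± 0.47) and Tal2 (-2.25 ± 0.44), the neuronal splicing factor Srrm4 (-2.38 ± 0.43), the Ras-association protein Rassf4 (-2.30) and 2510009E07Rik (-2.33) completed the called genes with the largest negative differences, with limma adjusted p-values of 0.00663 to 0.0388. With the block, Pou3f2, Onecut2, Tal2, Srrm4 and 2510009E07Rik missed the threshold. Of 24 Notch and proneural genes and of 8 cell cycle exit genes, Gadd45g alone was called, and with the block it was not (limma adjusted p = 0.0564). Of 26 neuron genes none was called, and the list median was -0.91, with 22 below 0, while edgeR called 10 lower. In cells that expressed Sox2 and not Dcx, a selection made after seeing the data that kept 41 and 40 forebrain and 28 and 19 hindbrain cells, that median was -0.05. There 1 gene, the secreted protease inhibitor Wfdc1, was called in the whole comparison, lower in forebrain, with 338 genes at an unadjusted p below 0.05. Dcx reached 10 TPM in 25.3% of hindbrain cells and in none of the forebrain cells, and its part in these differences was not tested. Erythroid transcripts summed to 2393 TPM in the hindbrain of embryo 2 and to 23.3 TPM in that of embryo 1, and 7 neural crest markers to 229 and 320 TPM in embryos 1 and 2, against 6.58 and 6.05 TPM in forebrain. Only 1 of the 7, Tfap2b, reached 10 TPM in these hindbrain samples, at levels of 1.79 and 1.97, and Foxd3 and Erbb3 were at 0. The part of these transcripts was not tested.

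**Figure D2:**
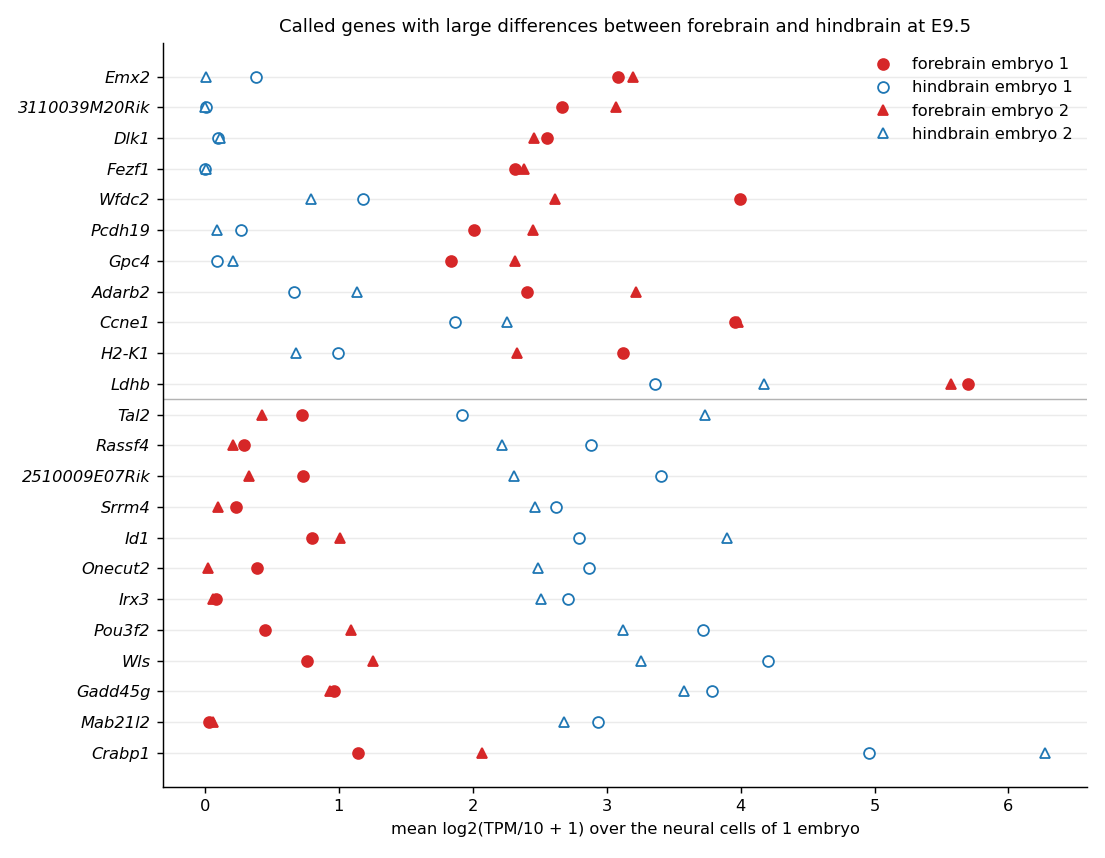
Mean log2(TPM/10 + 1) over the neural cells of 1 embryo (x axis) for called genes with large differences in each direction between forebrain (filled) and hindbrain (open) at E9.5. Circles are embryo 1 and triangles embryo 2. In every row the 2 forebrain points lie apart from the 2 hindbrain points, as the choice of genes required.

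The comparison with forebrain cells at E10.5 and E11.5 asks what sets the earliest cells apart within the organ. Of 14200 genes, 1128 were higher (7.94%) and 145 lower (1.02%) at E9.5 by the same rule, 8.96% in all. This split differed between ways of combining cells. When an embryo's level was the log of its mean TPM, 280 genes were higher and 289 lower, and on summed UMIs edgeR called 350 higher and 327 lower and DESeq2 444 higher and 880 lower. The later forebrain cells were shallower. Thinning each cell to 50000 UMIs, which left out 4 forebrain cells of E10.5 and 6 of E11.5, gave 876 higher and 134 lower. The part of depth in this split was not tested. Without embryo 1 of forebrain E9.5 578 genes were called, and without embryo 2 431, and of 80 genes followed through the alternatives 51 and 42 kept their call. Without the E10.5 embryo that went against its label 1090 were called. The E9.5 embryos serve this comparison and that with the hindbrain, so that the results of these comparisons are not independent. Counts of called list genes below are to be read against 7.94% higher and 1.02% lower over all genes.

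Few of the later cells expressed Sox2 without Dcx. Cells that expressed Sox2 and not Dcx numbered 41 and 40 in the E9.5 embryos, but 5 and 7 at E10.5 and 3 and 7 at E11.5. Restricted to these cells, 2 genes were called between stages, Ckb and the tubulin gene Tuba1a, both lower at E9.5, and 1288 had an unadjusted p below 0.05. For each group below, the median difference in these cells is given beside that in all neural cells. How far cell composition sets a difference in all neural cells was not tested.

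The largest positive differences at E9.5 were in genes of varied function. Emb, a partner of monocarboxylate transporters, was at 4.55 and 3.22 at E9.5 and between 0.19 and 1.24 later (3.27 ± 0.35, limma adjusted p = 0.000383). Srm, which makes the polyamine spermidine, was at 5.16 and 5.34 against 1.45 to 2.94 (3.23 ± 0.32, limma adjusted p = 0.000231). Ptbp1, a splicing repressor of neuronal exons, was at 4.55 and 4.25 against 1.38 to 1.90 (2.74 ± 0.31, limma adjusted p = 0.000459). Id3, an inhibitor of basic helix-loop-helix factors, was at 4.58 and 4.18 against 1.22 to 2.23 (2.82 ± 0.28, limma adjusted p = 0.000231). Metrn, a secreted glial and neurite factor, Gsta4, a glutathione transferase, Eif4ebp1, a translation regulator, the imprinted gene Mest and Wfdc2 differed by 2.71 to 2.88, with limma adjusted p-values of at most 0.00104. Ccnd1, Slc2a1 and Prtg, described with their groups, completed the set. In none of these genes did an E9.5 embryo overlap a later one, as their choice required. The same held for 34.2% of all genes.

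Early embryonic regulators were higher at E9.5 over all neural cells. These heterochronic genes are known for high levels in early embryos and loss during development, in part through the let-7 microRNAs. Of 15 written down, 12 passed the filter on low values, and of these 9 were higher at E9.5 and none lower, with a median difference of 1.34 over all neural cells and 1.20 in cells with Sox2 and without Dcx, against 0.07 and 0.10 over all genes tested. By edgeR 5 were called. In cells with Sox2 and without Dcx, 10 of the 12 were above 0 and none was called. Over all genes tested, in all neural cells, 7.94% were called higher. The list was written from knowledge of let-7 targets and of earlier results of these data, so that its content is not independent of its direction.

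Prtg (chr9:72806874-72917291), protogenin, an immunoglobulin receptor of the early neural tube, was at 3.26 and 2.94 at E9.5, at 0.19 and 0.14 at E10.5 and at 0.00 and 0.26 at E11.5 (2.95 ± 0.30, limma adjusted p = 0.000248). It was expressed in 42 and 42 of the E9.5 cells and in 5 of 96 later ones. In cells with Sox2 and without Dcx the difference was 3.10. Prtg was at 3.70 and 4.43 in the E9.5 hindbrain, so that its high level was not restricted to the forebrain.

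The LIN28 proteins block let-7 maturation. Lin28a (chr4:134003330-134018841) was at 1.51 and 1.42 at E9.5, at 0.36 and 0.29 at E10.5 and at 0.00 and 0.08 at E11.5 (1.28 ± 0.18, limma adjusted p = 0.00106), and was expressed in 28 and 27 E9.5 cells, in 6 of 96 later cells and in none of the 34 hematopoietic cells. Lin28b was at 2.26 and 2.36 against 0.37 to 0.98 (1.63 ± 0.24, limma adjusted p = 0.00154). Trim71, an RNA-binding ubiquitin ligase of the same pathway, was at 1.32 and 1.23 against 0.00 to 0.18 (1.18 ± 0.19, limma adjusted p = 0.00244). For these 3 genes the difference in cells with Sox2 and without Dcx was 1.24, 1.91 and 1.16.

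Hmga2 (chr10:120361275-120476469), a chromatin protein of young stem cells, was at 4.28 and 5.39 at E9.5, 4.10 and 2.96 at E10.5 and 2.19 and 1.19 at E11.5 (2.22 ± 0.42, limma adjusted p = 0.00467). It was expressed in all 88 E9.5 cells and in 54 of 96 later ones, and its difference in cells with Sox2 and without Dcx was 0.93. The RNA-binding proteins Igf2bp1, at 5.48 and 5.84 against 3.19 to 4.10 (2.07 ± 0.30, limma adjusted p = 0.00136), and Igf2bp3 (1.53 ± 0.28) were called, while Igf2bp2 at 3.49 and 3.22 was not (0.79, limma adjusted p = 0.0752). Sall4, a pluripotency factor (1.39 ± 0.33), and Dnmt3b, a de novo DNA methyltransferase (1.23 ± 0.21), were also called, and Mycn (0.72, limma adjusted p = 0.216) and Tet1 (0.22) were not. None of the 12 was called between forebrain and hindbrain at E9.5.

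**Figure D3:**
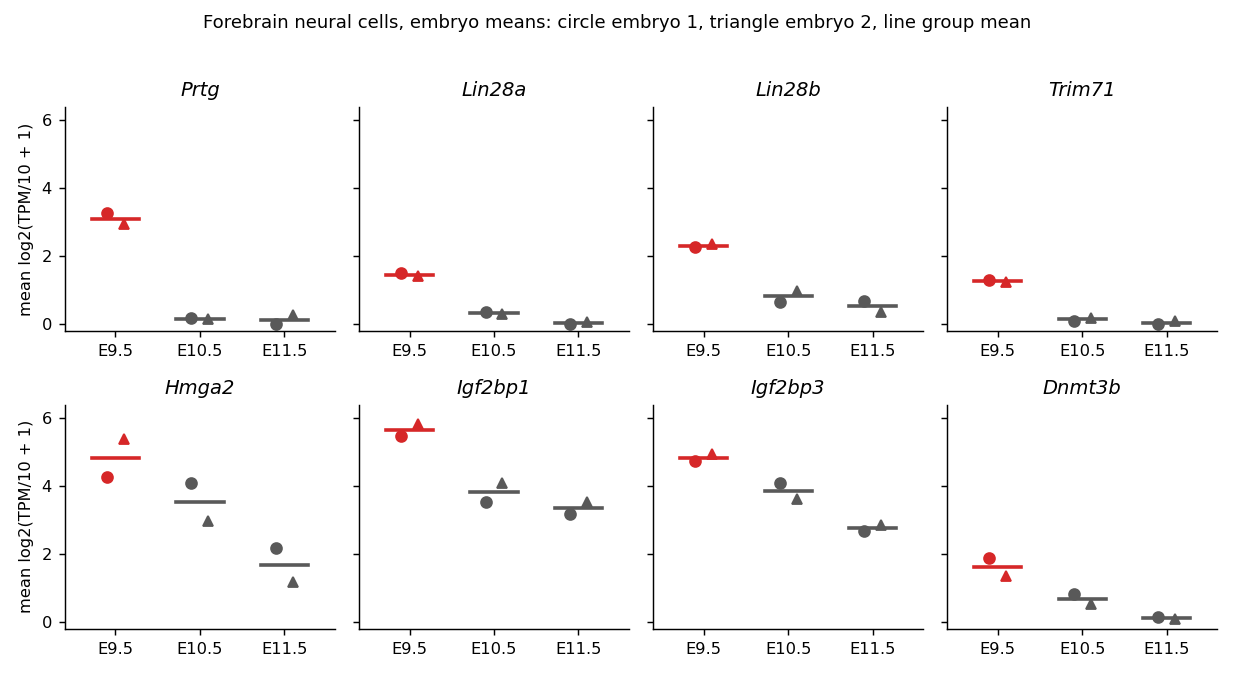
Mean log2(TPM/10 + 1) over the forebrain neural cells of each embryo (y axis) at 3 stages (x axis) for 8 of the 9 called early embryonic regulators. Circles are embryo 1, triangles embryo 2 and lines group means, with E9.5 in red. Both E9.5 points lie above all 4 later points in each panel, and for Prtg the later points are at 0.26 or less.

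The let-7 family is shown because its seed, bases 2 to 8 of the microRNA, defines the sites looked for in these genes. The 8 members let-7a to let-7g and let-7i share, in RefSeq (GRCm38.p6), the seed GAGGUAG, in capitals in these examples.
let-7a-5p: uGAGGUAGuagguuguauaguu
let-7d-5p: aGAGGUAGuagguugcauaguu
let-7e-5p: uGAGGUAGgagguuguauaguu
let-7i-5p: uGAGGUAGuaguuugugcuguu
The match to the seed, CTACCTC, was searched on the transcribed strand of the longest annotated 3′ UTR of each gene (GENCODE M21, GRCm38). It was present in 1369 of 12987 tested genes with a UTR (10.54%) and occurred at least 3 times in 0.193%. Of the 12 early embryonic regulators 9 held it and 4 held it 4 times each, namely Lin28b, Hmga2, Igf2bp1 and Trim71. The list was written from known let-7 targets, so that this count follows from the choice of genes and is not to be read against the share over all genes. Lin28a and Prtg held 2, and Dnmt3b, Mycn and Tet1 none. Since longer UTRs hold more matches, the share among UTRs of like length was 14.9% for Lin28a, 16.4% for Hmga2, 25.5% for Prtg and 33.0% for Igf2bp1. The first match in each of these UTRs is printed in the direction of transcription with the match in capitals, and the coordinates are those of the match.
Lin28a chr4:134005190-134005196, minus strand: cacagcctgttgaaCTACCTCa
Hmga2 chr10:120364225-120364231, minus strand: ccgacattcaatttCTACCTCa
Igf2bp1 chr11:95961779-95961785, minus strand: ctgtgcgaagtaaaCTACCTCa
Trim71 chr9:114512473-114512479, minus strand: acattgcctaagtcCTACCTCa
Prtg chr9:72912573-72912579, plus strand: cctctgctgaatagCTACCTCa
A match is a description of the sequence. MicroRNAs are not captured by this assay, and the level of let-7 in these cells was not measured.

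Most cell cycle genes were higher at E9.5. Of 20 S phase genes 18 were higher at E9.5 and of 20 G2 and mitosis genes 15, beside 7.94% over all genes. None was lower, and the medians were 1.88 and 1.73. In cells with Sox2 and without Dcx the medians were 0.66 and 0.45. By edgeR 7 and 0 genes were called. Ccnd1, cyclin D1, was at 6.09 and 5.69 at E9.5, 4.27 and 2.74 at E10.5 and 2.16 and 2.22 at E11.5 (3.04 ± 0.51, limma adjusted p = 0.00263), and its difference in the restricted cells was 2.05. Ccnd2 was at 6.69 and 7.31 against 3.87 to 5.78 (2.38 ± 0.41), Mcm6, a subunit of the replicative helicase, at 5.01 and 5.35 against 2.29 to 3.82 (2.29 ± 0.26), and Cdc20, an activator of the anaphase-promoting complex, at 4.66 and 4.13 against 1.59 to 2.83 (2.35 ± 0.34). Mki67 at 3.34 and 4.01 (0.99, limma adjusted p = 0.0801) and Top2a at 3.95 and 5.21 (1.28, limma adjusted p = 0.13) did not pass. Of 8 cell cycle exit genes (median -0.62, and -0.67 in the restricted cells), Gadd45g (-1.73 ± 0.43) and Ccng2 (-1.09 ± 0.24) were lower and the antiproliferative gene Btg2 (1.06 ± 0.32) higher, and Btg2 was at -0.11 in the restricted cells.

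Many glycolysis and hypoxia genes were higher as well. Of 24 tested, 14 were higher, beside 7.94% over all genes, 10 were not called and none was lower. The median was 1.16, and 0.48 in the restricted cells. By edgeR 8 were higher. The glucose transporter Slc2a1 was at 5.15 and 4.43 at E9.5 and between 0.94 and 3.12 later (3.01 ± 0.38, limma adjusted p = 0.000832), with 2.58 in the restricted cells. Ldha, which makes lactate, was at 8.44 and 8.41 against 4.85 to 7.33 (2.58 ± 0.28), and the lactate exporter Slc16a3 at 3.56 and 3.77 against 0.48 to 2.22 (2.58 ± 0.30). The last 2 differed by 0.86 and 2.17 in the restricted cells. The second glucose transporter Slc2a3 (1.88 ± 0.30) and Aldoa (2.13 ± 0.22) were called, whereas Gapdh differed by 0.54 and the hexokinase Hk1 by -0.04.

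Genes of ribosome production were higher too. Of 23 genes of ribosome biogenesis, 18 were higher, beside 7.94% over all genes, and none lower. The median was 1.46, and 0.92 in the restricted cells. By edgeR 8 were higher. Dkc1, the pseudouridine synthase of small nucleolar particles, was at 4.75 and 5.52 against 3.38 or less (2.65 ± 0.34, limma adjusted p = 0.000832), and its partner Nhp2 at 5.97 and 6.58 against 3.10 to 5.01 (2.27 ± 0.41). The nucleolar protein Ncl differed by 1.10 ± 0.19, while Npm1 (0.95) and Myc (0.89) stayed under the difference of 1.

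**Figure D4:**
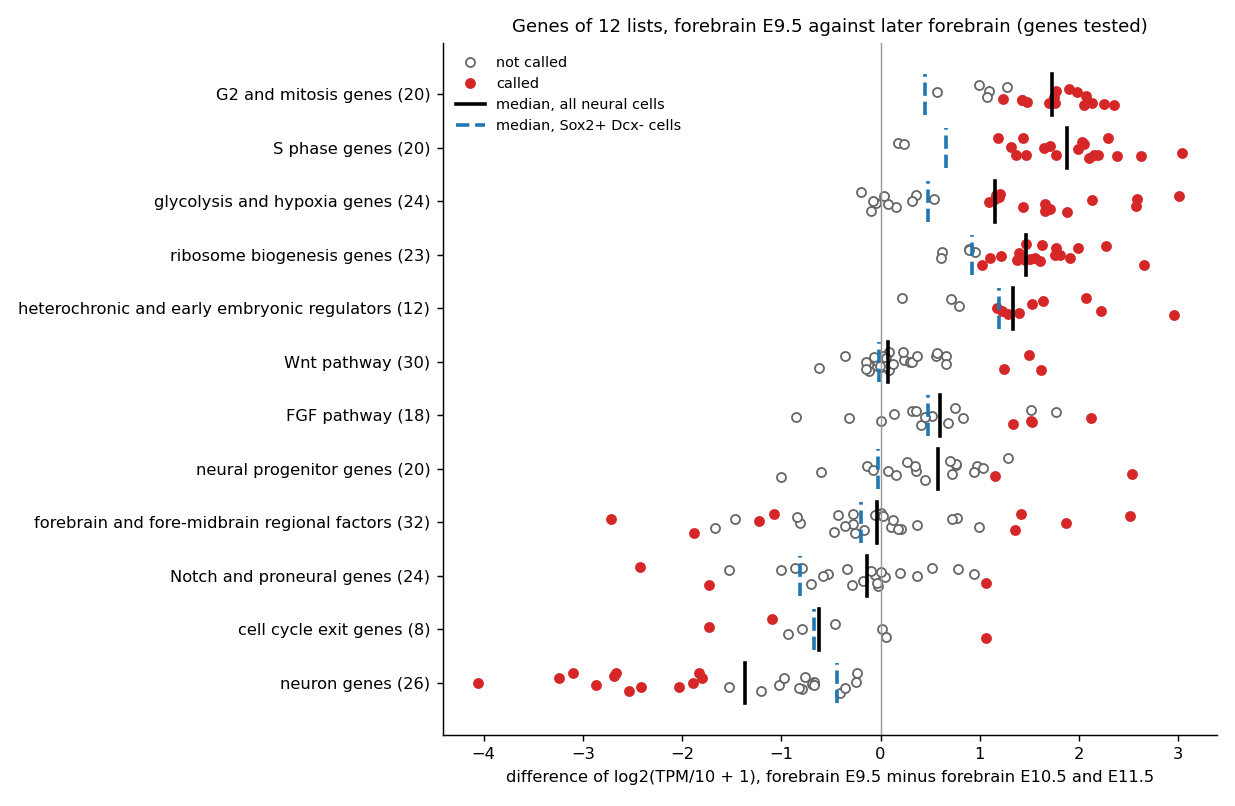
Difference of mean log2(TPM/10 + 1), forebrain E9.5 minus the mean of forebrain E10.5 and E11.5 (x axis), for the tested genes of 12 lists (y axis, number tested in brackets). Filled points passed the test and open points did not, black lines are list medians over all neural cells and dashed blue lines medians in cells with Sox2 and without Dcx. The medians of S phase genes were 1.88 and 0.66, and those of early embryonic regulators 1.34 and 1.20.

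Neuronal genes were lower. All 26 neuron genes had differences below 0 and 12 were called, beside 1.02% called lower over all genes. Their median was -1.36, and -0.44 in the restricted cells, where the choice of cells without Dcx bears on this list. By edgeR 19 were lower. Tubb3 was at 2.66 and 1.96 against 4.69 to 7.24 (-4.06 ± 0.53, limma adjusted p = 0.000907). Dcx was at 0.00 and 0.01 against 0.79 to 3.97 (-2.66 ± 0.58, limma adjusted p = 0.00929). Stmn3 (-3.10 ± 0.40) and Tagln3 (-3.24 ± 0.53), both cytoskeletal genes of neurons, and the RNA-binding neuronal proteins Elavl3 (-2.69 ± 0.44) and Elavl4 (-2.87 ± 0.57) were lower in both E9.5 embryos than in any later one. Stmn2 was called too, but its embryos overlapped between stages, at 2.87 and 0.45 at E9.5 against 2.50 to 4.91 later (-2.54 ± 0.80, limma adjusted p = 0.0475). Rtn1 (-3.30 ± 0.59), Ncan (-2.90 ± 0.36), Mllt11 (-2.89 ± 0.51) and Ndn (-2.87 ± 0.50), all known from neurons or their matrix, and the transcription factor Bcl11a, at 0.33 and 0.40 against 2.82 to 5.21 (-3.23 ± 0.37), were also among the lowest genes.

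Ckb, brain creatine kinase, was 1 of the 2 genes still called in the restricted cells. It was at 3.98 and 5.10 at E9.5 against 7.33 to 7.90 later (-3.02 ± 0.26, limma adjusted p = 0.000198), and its difference there was -3.22 (limma adjusted p = 0.00898). Embryonic globins took the remaining places among the lowest genes. Hbb-y was at 0.63 and 1.93 against 5.23 to 8.38 (-5.79 ± 1.11), with Hba-x (-4.57) and Hbb-bh1 (-4.39) beside it. Erythroid markers summed to between 621 and 7380 TPM in the later forebrain embryos, and their part in the other stage differences was not tested.

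Regional genes of the forebrain changed in both directions with stage. Of 32 tested, 4 were higher and 4 lower at E9.5, beside 7.94% higher and 1.02% lower over all genes. The median was -0.04, and -0.19 in the restricted cells. Otx2, at 3.84 and 2.66 against 0.48 to 1.29 (2.51 ± 0.60, limma adjusted p = 0.0142), Fezf1 at 2.31 and 2.39 against 0.32 to 1.63 (1.36 ± 0.18, limma adjusted p = 0.00104), the Hedgehog effector Gli3 (1.42 ± 0.44) and the Wnt effector Tcf7l2 (1.87 ± 0.58) were higher. For Tcf7l2 the embryos overlapped, at 3.20 and 4.79 against 1.38 to 3.59. The interneuron factors Dlx1, at 0.00 and 0.00 against 1.06 to 3.29 (-1.88 ± 0.42), and Dlx2, at 0.10 and 0.23 against 1.53 to 4.28 (-2.72 ± 0.54), were among the 4 lower genes. By edgeR none of the list was higher and 5 were lower.

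Progenitor genes gave 2 higher of 20 tested and none lower, a share near the 7.94% called higher over all genes. Differences were above 0 for 16, with a median of 0.58. In the restricted cells the median was -0.03. Ptn, a secreted growth factor of radial cells, was at 3.98 and 3.29 against 0.50 to 1.97 (2.53 ± 0.42, limma adjusted p = 0.00263), and Sox2 at 3.29 and 3.32 against 1.67 to 2.52 (1.16 ± 0.29, limma adjusted p = 0.0193). In the restricted cells, which had to express Sox2, its difference was -0.15. Pax6 stood at 2.52 and 3.45 at E9.5, 4.77 and 2.11 at E10.5 and 1.19 and 0.81 at E11.5, Nes at 2.73 and 3.31 against 2.29 to 4.14, and Hes1 at 2.44 and 2.76 against 0.41 to 3.05. These 3 overlapped between stages and did not pass. Of 24 Notch and proneural genes, whose median was -0.14, and -0.81 in the restricted cells, Dll3 was lower at E9.5, at 0.15 and 0.08 against 1.19 to 3.43 (-2.43 ± 0.53, limma adjusted p = 0.00954), as was Gadd45g, and Btg2 was the 1 gene higher. Hes5, a Notch target, was at 2.46 and 2.37 against 0.40 to 2.27 and did not pass (0.94, limma adjusted p = 0.211).

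Signalling genes gave few calls, and their counts are to be read against the 7.94% of all genes called higher. In the FGF pathway 4 of 18 were higher at E9.5, namely the feedback phosphatase Dusp6, at 3.16 and 2.01 against 0.17 to 0.92 (2.12 ± 0.48, limma adjusted p = 0.011), the effector Etv5, at 2.01 and 1.07 against 0.05 to 0.53 (1.34 ± 0.25, limma adjusted p = 0.00456), the ligand Fgf15 (1.52 ± 0.40) and the receptor antagonist Il17rd (1.53 ± 0.48). The median of the 18 was 0.60, and 0.48 in the restricted cells. By edgeR 5 were higher and 1 lower, by the log of the mean 1 and 1, and after thinning 3 were higher. The embryos of E9.5 stood apart on Il17rd, at 2.93 and 0.54, and without embryo 1 none of the 4 was called, with differences of 0.33 for Il17rd and 0.87 to 1.55 for the other three. In the Wnt pathway (median 0.07, and -0.02 in the restricted cells) 3 of 30 were higher, the nuclear effector Lef1 (1.25 ± 0.33) and the secreted antagonists Sfrp1 (1.49 ± 0.47) and Sfrp2 (1.62 ± 0.47), but Sfrp1 was at -0.33 in the restricted cells and by edgeR none of the list was called. BMP genes gave 2 of 18 higher, Id2 and Id3 (median -0.01, and 0.02 in the restricted cells), and Hedgehog genes 1 of 14, Gli3 (0.03 and 0.02). Of 15 imprinted growth genes Dlk1, Mest and Grb10 were higher and Ndn lower (0.06 and 0.10). Apical junction genes gave 1 of 20 higher (0.26 and 0.16) and retinoic acid genes 0 of 15 (0.14 and 0.23). The shares of the Wnt, BMP, Hedgehog and apical junction lists lay near that over all genes. Of 12 immediate early and heat shock genes, which respond to handling as well as to signals, 4 were higher (0.36 and 0.29), with Ier2 at 4.18 and 4.19 and Fos at 1.73 and 2.53 at E9.5.

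Whether the stage difference was larger in forebrain than in hindbrain was tested as an interaction. Of 14200 genes 3 passed (0.0211%), all with a lower value at E9.5 in forebrain relative to hindbrain, and 1180 had an unadjusted p below 0.05. Wfdc1, a secreted protease inhibitor (-1.35), the neuropeptide gene Cck (-1.31) and Lrtm1, a leucine-rich repeat gene (-1.05), were at 0.07 or less in both forebrain embryos of E9.5 and between 0.97 and 1.53 in the E9.5 hindbrain. In the later hindbrain all 3 were at 0.31 or less. Without forebrain E9.5 embryo 2, 18 genes passed, without hindbrain E9.5 embryo 1 or 2, 5 and 13, and without forebrain E11.5 embryo 1 or 2, 10 and 7. By edgeR 20 genes passed and by DESeq2 146. None of the early embryonic regulators passed, and for these the stage difference was not shown to differ between the regions.

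The largest differences between the 2 embryos included FGF pathway genes. In forebrain 130 of 14200 genes were higher in embryo 1 by at least 1 and 75 in embryo 2, and with 2 embryos there is no test within the group. Spry1 (chr3:37639947-37644598), an FGF feedback inhibitor, was at 3.46 in embryo 1 and 0.41 in embryo 2, the largest difference of all genes. Fgf17 (chr14:70636203-70642268), a ligand of the anterior ridge, was expressed in 30 of 45 cells of embryo 1 and 0 of 43 cells of embryo 2, where a count of 0 allows up to 6.98%. Fgf8 was expressed in 11 cells of embryo 1, all of which also expressed Fgf17, and in none of embryo 2. Il17rd was at 2.93 and 0.54, Etv4, a transcription factor induced by FGF, at 1.56 and 0.17, and the zinc-finger factor Zic4 at 2.47 and 0.33.

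In the other direction, the orphan receptors Nr2f1 and Nr2f2 were higher in embryo 2. Nr2f1 (chr13:78188973-78199757), which patterns the cortex, was expressed in 2 cells of embryo 1 and 28 of embryo 2, and Nr2f2 in 1 and 21. In embryo 2 both were expressed together in 20 cells and neither in 14. In the hindbrain of the same embryos Nr2f1 was at 2.91 and 2.72, and Fgf17 at 0.00 and 0.34, so that the differences of these 2 genes were not shared by the hindbrain. Zic4 was higher in embryo 1 there too, at 1.82 and 0.78. Other genes differed in both organs, among them Ube2s, at 4.79 and 1.90 in forebrain and 4.54 and 2.06 in hindbrain. Depth was lower in embryo 1, and after thinning every cell to 50000 UMIs Fgf17 was expressed in 66.7% and 0% of cells, Nr2f1 in 6.67% and 62.8%. Embryo, labelled sex and dissected sample cannot be told apart here, since each embryo had a forebrain sample of its own.

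**Figure D5:**
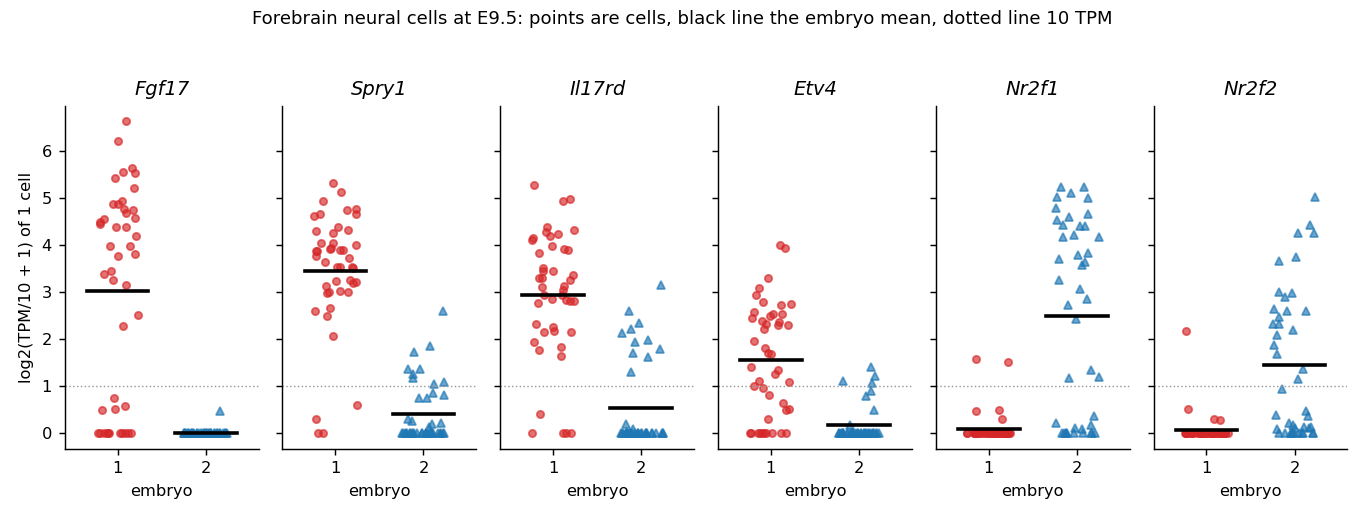
log2(TPM/10 + 1) of each of 88 forebrain neural cells at E9.5 (y axis) in embryo 1 (45 cells, red circles) and embryo 2 (43 cells, blue triangles) for 6 genes, with the embryo mean as a black line and 10 TPM as a dotted line. Fgf17, Spry1, Il17rd and Etv4 have the higher mean in embryo 1, and Nr2f1 and Nr2f2 in embryo 2.

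Within each embryo, the most variable genes included a Notch target, signalling ligands and mitotic genes. Genes of at least 20 TPM on average were ranked by their squared coefficient of variation relative to a curve over the mean, and 28 were in the top 50 of both embryos, and 26 of these also after thinning. They included Gadd45g, with means of 85.8 and 49.5 TPM and maxima of 2807 and 969 TPM, Hes5, with maxima of 979 and 749 TPM, and Fgf15, with means of 180.0 and 63.4 TPM. The dorsal midline ligand Wnt8b, expressed in 15 and 7 cells, reached 360.2 and 399 TPM, and was expressed together with Rspo3, an enhancer of Wnt signalling, in 5 and 2 cells. Id3 ranged from 4.92 to 1235 TPM in embryo 1 and from 0 to 2652 TPM in embryo 2. Mitotic genes on the list were Ube2c, Kpna2 and Prc1, and Fos, Id2, Ckb, Ccnd2 and Hist1h1b were on it as well. The other genes were Xaf1, Gm16702, Luc7l2, Malat1, Casc4, Zmynd8, Tapbpl, Gmeb1, A230046K03Rik, Rn45s, Rab33b, Gm15645, H2-T23, Pbld1 and Tc2n.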

How the data were processed

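Per the labels and the study's methods, the authors sequenced modified STRT libraries (150-bp paired reads), used CASAVA 1.8, TopHat2 2.0.12 and HTSeq on mm10, collapsed UMIs and deposited CPM values, called TPM, per cell. The HTSeq version and annotation are not given in the sources used here. Cell groups came from the study's cell sheet. Gene positions are from GENCODE M21 (GRCm38), microRNAs from RefSeq. Whole UMIs were recovered from the CPM values deposited by the authors (100% within 0.05 UMI), giving totals equal to the cell sheet in 439 of 439 brain cells.

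Genes at 10 TPM in at least 3 of 369 neural cells were kept (14200 of 23154). Means of log2(TPM/10 + 1) per embryo and region (12 means, 6 groups, 2 embryos each) were fitted with limma 3.58.1 (R 4.3.3, trend, 6 residual degrees of freedom) and p-values were adjusted by Benjamini-Hochberg. With 2 embryos a group, p-values and SEs rest on a spread between embryos pooled over the 6 groups and moderated over genes. They do not measure the spread of the compared embryos alone. Calls required an adjusted p under 0.05 with a difference of at least 1. edgeR 4.0.16 and DESeq2 1.42.0 on summed UMIs, thinning, filters, another pseudocount, a replicate block and leaving out each embryo were the alternatives, and cells with Sox2 and without Dcx were added after seeing the data. Deviations of forebrain and hindbrain of 1 animal correlated at 0.359, -0.218 and -0.110 at the 3 stages, and the pairing comes from the labels. Shares used Wilson intervals or exact permutation tests (scipy 1.17.1). The fits were tested on simulated data with a set spread between embryos. Changes of 2-fold were recovered in 8% of changed genes against hindbrain, 22% against later forebrain and 6% for the interaction. For 4-fold changes these shares were 92%, 88% and 66%.

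Members and gene lists were chosen with earlier results of these data known. Named were the 12 called, non-overlapping genes with the largest differences per direction, genes called in the interaction, the markers Sox2, Nes, Hes1 and Pax6, up to 6 genes per list (its largest called, and its first 3), and genes among the 50 most variable in both embryos. Genes outside this rule, among them those of the paragraphs on embryo differences, were chosen after their values were seen, and some results that the rule names are not reported here.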

Additional observations from a re-analysis of the deposited data

Results flagged for a closer look

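Genes with a stage difference that differed between forebrain and hindbrain are listed here. By the interaction test, Wfdc1 (-1.35, limma adjusted p = 0.000933), Cck (-1.31, limma adjusted p = 0.000933) and Lrtm1 (-1.05, limma adjusted p = 0.00692) differed, each at 0.07 or less in forebrain E9.5 and at 0.97 or more in hindbrain E9.5.

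For 3 further genes every E9.5 forebrain embryo lay above the later forebrain and every E9.5 hindbrain embryo below the later hindbrain. The stage difference was 1.21 in forebrain and -0.62 in hindbrain for Dlk1, 1.34 and -0.61 for Etv5, and 1.53 and -0.88 for Il17rd. The interaction did not pass for any of them (Dlk1 1.83, limma adjusted p = 0.23, Etv5 1.94, limma adjusted p = 0.092, Il17rd 2.41, limma adjusted p = 0.35).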

How the results depend on the processing

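Forebrain against hindbrain at E9.5 gave 58 called genes, and 369 by DESeq2, 120 by edgeR, 127 with log2(TPM + 1), 23 without a filter, 95 with a stricter filter, 29 with the replicate block, 1 in cells with Sox2 and without Dcx and 10 to 66 when 1 embryo mean was left out. Against later forebrain, the 1273 genes became 677 by edgeR, 569 with the log of the mean, 2912 with log2(TPM + 1), 545 against E10.5 alone, 1764 against E11.5 alone, 2 in cells with Sox2 and without Dcx and 431 to 1567 with 1 embryo mean left out. The share called higher was 88.6%, and 51.7% by edgeR, 49.2% with the log of the mean and 33.5% by DESeq2. The interaction gave 3 genes, and 146 by DESeq2, 20 by edgeR, 14 with the stricter filter, 7 with log2(TPM + 1), 0 in cells with Sox2 and without Dcx (425 at an unadjusted p below 0.05) and 2 to 18 with 1 embryo mean left out. The cause of these changes was not tested. In the cells with Sox2 and without Dcx, the stage differences of Sox2 (-0.15), Btg2 (-0.11) and Sfrp1 (-0.33) changed sign. Over all alternatives, named genes kept the call in 364 of 567 values against hindbrain, 1494 of 1839 against later forebrain and 50 of 63 for the interaction. The replicate number of different animals as a block gave 1259 genes against later forebrain. Counting cells with at least 1 UMI as expressing gave shares of 97.7% for Sox2 in embryo 2, 93.3% and 100% for Nes, 100% for Hes1 in embryo 2 and 97.8% and 97.7% for Pax6. A UMI is worth 10 TPM in a cell of 100000 UMIs, which limits low genes in the later forebrain.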
